A study of Mus musculus with 24 samples.

Results

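The contacts of 1 region of mouse chromosome 4, called 154.9 in the sample labels, were compared between day 3 and day 0 in the embryonic stem cell line OCF2ΔOCT4/SOX2, here the OctSox line. The comparison used 4 of the series' 24 libraries, 2 from day 0 and 2 from day 3, and every HindIII fragment of the chromosome except the viewpoint fragment and 1 neighbour on either side. The assay was 4C sequencing, in which crosslinked chromatin is cut and ligated, and the fragments joined to a chosen viewpoint are amplified and counted. The series covers 3 viewpoints in 2 lines, in 12 groups of 2 libraries. Both groups used here had the genotype OCF2ΔOCT4/SOX2 and the strain C57Bl/6 x 129/Sv, both were at passage 7, and they differed in the day alone as far as the labels say. The treatment that separates day 3 from day 0 is not named in the sources used here, and neither is a gene or element at 154.9. The series title places the work at the onset of stem cell differentiation. The YY1 line (genotype OCF2ΔYY1, same strain and passage, same viewpoint and days, 2 libraries a day) served for the test of whether the day difference depended on the line. The labels do not say whether a line is 1 clone, and the replicates are called biological without a statement that they came from separate cultures. The p-values below thus measure the spread between these libraries.

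In a 4C profile most ligation products come from the DNA beside the viewpoint, because neighbouring stretches of a chromatin fibre meet most often, and contact frequency falls as the distance along the chromosome grows. Contacts far along the same chromosome are rare in any one cell. They are sampled by few ligation events, each of which PCR can turn into many reads. The genotype labels name OCT4 and SOX2, transcription factors of the pluripotent state, and YY1, a zinc finger protein that can join enhancers and promoters.

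The 4 libraries held 1318028 and 1451174 counts at day 0 against 2084896 and 1544277 at day 3. In mm9 coordinates the viewpoint fragment ran from 154951842 to 154952528 on chromosome 4, 687 bp, and was identified by its count. Of each library's total it took 20.1% (95% Wilson interval 20.0 to 20.1) in day 0 replicate 1 and 31.2% (31.1 to 31.3) in replicate 2. In the day 3 libraries it took 56.3% (56.2 to 56.4) and 27.2% (27.1 to 27.2). Day 3 replicate 1 thus stood apart: 42.5% of its counts lay outside the 3 excluded fragments, against 73.9% and 67.6% at day 0 and 68.0% in day 3 replicate 2. In absolute terms the counts outside the viewpoint were close, at 973448, 981017, 885645 and 1050407, and all shares below are shares of these. A fragment with 0 counts can hold at most 0.000339% of the counts outside the viewpoint in day 3 replicate 1, which had the fewest such counts. Reads were not collapsed by molecular identifiers, so the intervals and the floor describe counting error alone. Of 42397 fragments outside the viewpoint, 17862 had at least 1 count in any of the 4 libraries and 2062 had one in all 4. The fragment list ended 678 kb beyond the viewpoint, so 42250 fragments lay on the side of lower coordinates and 147 on the other.

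The excluded neighbours varied widely within each day. The fragment on the lower side, 154930008 to 154951835, a long one of 21828 bp, held 1.43% and 0.0533% of all counts at day 0 against 0.18% and 1.62% at day 3. The fragment on the higher side, 154952535 to 154954686, held 4.63% and 1.15% at day 0 against 1.03% and 3.19% at day 3. At both fragments day 0 replicate 1 and day 3 replicate 2 were high and the other libraries low, so the days overlapped.

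The same pairing of libraries across the days ran through the whole profile near the viewpoint. Within 0.1 Mb lay 50.5% and 26.0% of the counts at day 0 against 29.9% and 46.0% at day 3. Between 0.1 and 1 Mb lay 27.2% and 36.6% at day 0 against 32.9% and 24.3% at day 3. Day 0 replicate 1 and day 3 replicate 2 had steep profiles, with much of their signal next to the viewpoint. Day 0 replicate 2 and day 3 replicate 1 had broad ones. From 1 to 5 Mb the shares were 3.85% and 9.86% at day 0 against 8.38% and 4.25% at day 3, and from 5 to 20 Mb they were 5.37% and 12.3% at day 0 against 10.3% and 6.32% at day 3. In each of these 4 bands the days overlapped. The decay slope, log10 contact against log10 distance, showed the split as well, at -1.24 and -0.96 at day 0 and -1.02 and -1.18 at day 3.

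**Figure D1:**
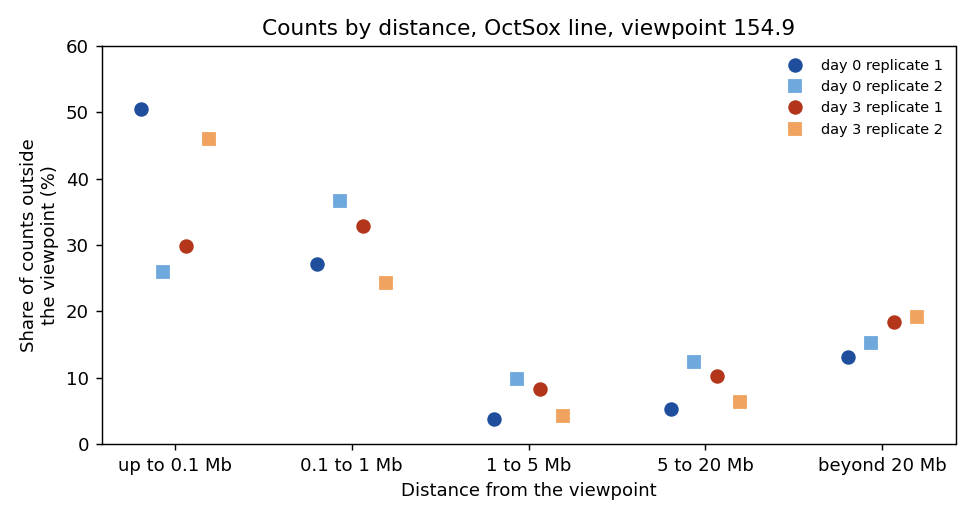
Share of counts outside the viewpoint (vertical axis, percent) in 5 bands of distance from the viewpoint (horizontal axis), 1 point for each of the 4 OctSox libraries. Within 0.1 Mb the points of a day lie far apart (50.5% and 26.0% at day 0), and beyond 20 Mb both day 3 points (18.4% and 19.1%) lie above both day 0 points (13.1% and 15.2%).

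Beyond 20 Mb the days did not overlap in shares of the counts outside the viewpoint. That band held 13.1% and 15.2% of the counts at day 0 against 18.4% and 19.1% at day 3, means of 14.2% ± 1.5 and 18.8% ± 0.469 (SD, n = 2 each), a difference of 4.59 percentage points. With 2 libraries against 2 there are 6 arrangements, and the two-sided exact permutation p of 0.333 is the smallest the design allows. Adjusted over the 5 bands it was 1. The mean differences in the nearer bands, from the viewpoint outwards, were -0.29, -3.24, -0.54 and -0.52 percentage points, with exact permutation p-values between 0.667 and 1, and each was smaller than the SD within either day. The size of the difference depended on what was left out at the viewpoint. With nothing left out, so that shares are of all counts, it was 0.418 percentage points. The days then overlapped, and day 3 replicate 1 was the lowest library. With 10 fragments on either side left out the difference was 6.72.

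The highest far shares lay in different stretches in the day 3 libraries. From 20 to 60 Mb, an edge chosen after the values were seen, the shares were 6.36% and 10.98% at day 0 against 12.4% and 9.3% at day 3. Beyond 60 Mb they were 6.36% and 3.58% at day 0 against 5.31% and 9.3% at day 3. Day 3 replicate 1 was the highest library in the inner stretch and day 3 replicate 2 the highest in the outer one. In each stretch the other day 3 library lay below a day 0 library, so neither stretch alone separated the days. Among the steep libraries the day 3 share was the higher in both stretches (9.3% against 6.36% in each). Among the broad ones it was too (12.4% against 10.98%, and 5.31% against 3.58%). Steep and broad were named after the values were seen, with 1 library of each at each day.

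**Figure D2:**
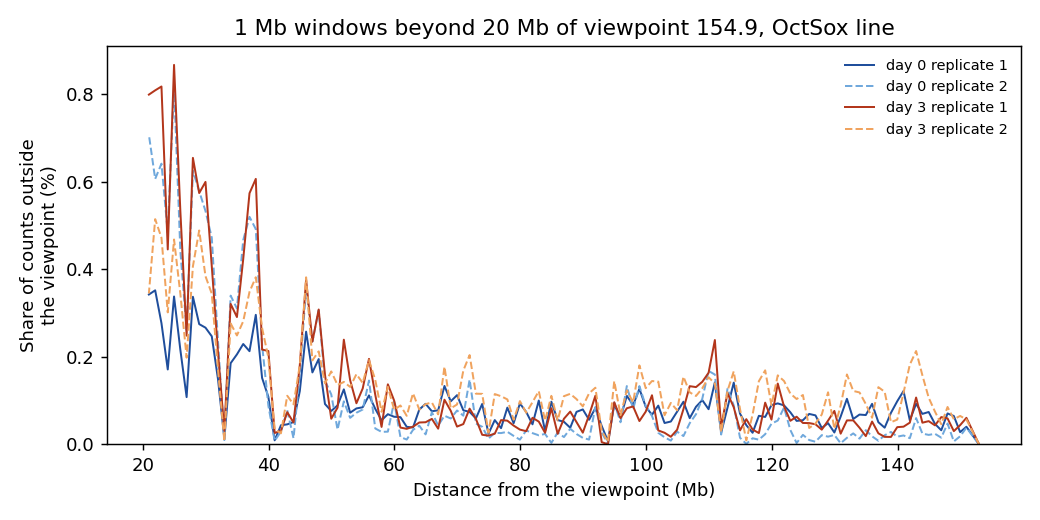
Share of counts outside the viewpoint (vertical axis, percent) in 1 Mb windows beyond 20 Mb, by distance from the viewpoint in Mb (horizontal axis), 1 line for each OctSox library. Day 3 replicate 1 has the highest summed share from 20 to 60 Mb (12.4%) and day 3 replicate 2 the highest beyond 60 Mb (9.3%).

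The larger far share did not come with more far fragments. Beyond 20 Mb, 16.6% (95% Wilson interval 16.2 to 17.0) and 14.1% (13.8 to 14.5) of 37580 fragments had at least 1 count at day 0, against 13.3% (12.9 to 13.6) and 14.1% (13.8 to 14.5) at day 3. What differed was the level of the fragments seen: their median raw count, not scaled for depth, was 10 and 12 at day 0 and 16 and 18 at day 3. The days did not overlap in this median, in contrast to the share detected. Total counts were also higher in both day 3 libraries, whereas in counts outside the viewpoint the days overlapped. At 5 to 20 Mb the medians were 18 and 34 at day 0 against 29 and 27 at day 3, and the days overlapped. In the YY1 line the medians beyond 20 Mb were 13 and 15 counts at day 0 against 13 and 21 at day 3, and the days overlapped.

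**Figure D3:**
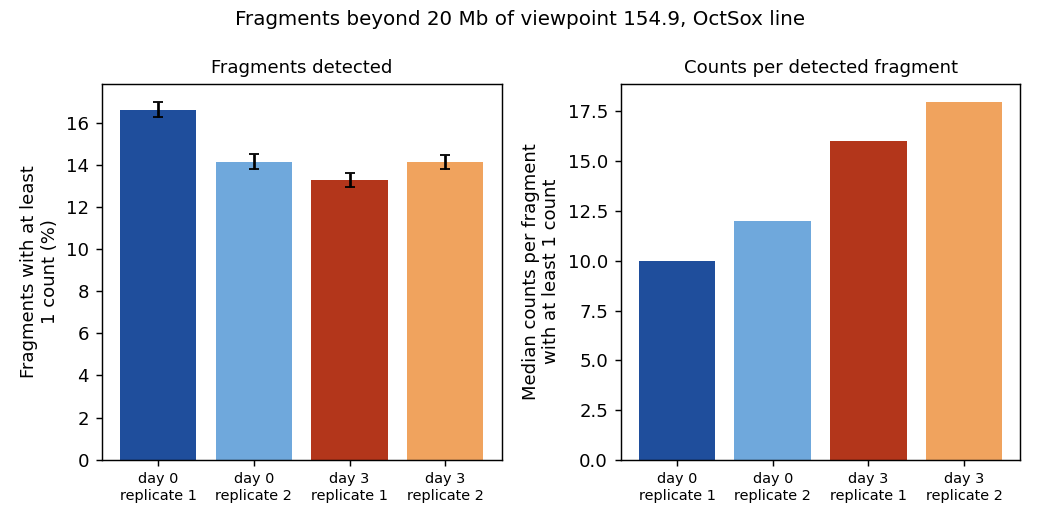
For fragments beyond 20 Mb in each OctSox library, the percent with at least 1 count (left, bars with 95% Wilson intervals) and the median counts of those fragments (right). Day 3 libraries detect no more fragments than day 0 libraries, and their detected fragments hold more raw counts (16 and 18 against 10 and 12).

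Far fragments were mostly seen in a single library. Of the 37580 fragments beyond 20 Mb, 6207 had 10 or more counts in 1 of the 4 libraries, 1712 in 2, 624 in 3 and 178 in all 4. Of the 3198 fragments with 10 or more counts in day 0 replicate 1, 24.1% reached that in day 0 replicate 2 as well, and these 770 were 27.2% of the 2829 there. The day 3 libraries shared 723 such fragments, 24.3% of those in replicate 1 and 22.5% of those in replicate 2. Longer fragments were detected more often, from between 8.49% and 12.1% by library among far fragments of up to 993 bp to between 16.3% and 22.2% among those of 5384 bp or more.

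Close to the viewpoint the libraries ranked fragments alike, and no more so within a day than between days. Spearman's rho over the 287 fragments at 0.1 to 1 Mb was 0.934 and 0.936 for the pairs of libraries of the same day, and between 0.895 and 0.942 for the 4 pairs of different days. Over the 37580 fragments beyond 20 Mb it was 0.194 and 0.24 within days and between 0.154 and 0.312 between days. The highest far value belonged to day 0 replicate 2 with day 3 replicate 1. These are descriptions across fragments that share the distance decay and fragment length. Summed over 1 Mb windows beyond 20 Mb (132 windows), rho ranged from 0.697 to 0.791 over the 6 pairs, above the values for single fragments.

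The profile within 0.5 Mb had a peak at the viewpoint and a shoulder on either side. The 100 kb window that holds the viewpoint, 154900001 to 155000000, had 36.0% and 14.6% of counts at day 0 against 19.0% and 32.5% at day 3. The next on the lower side, 154800001 to 154900000, had 13.7% and 9.65% at day 0 against 10.1% and 12.6% at day 3, and the next on the higher side, 155000001 to 155100000, had 6.97% and 7.53% at day 0 against 6.77% and 6.67% at day 3. The steep pair of libraries was again high in the first 2 of these windows. In the window on the higher side all 4 libraries were close and both day 3 values lay below both day 0 values.

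None of the 11 windows within 0.5 Mb passed the test. Over all 1495 windows of 100 kb with a count, both day 3 shares lay below both day 0 shares in 105 (7.02%). They lay above in 273 (18.3%). Of the 11 windows, 3 had both day 3 shares below both day 0 shares and 0 had them above. Beside 155000001 to 155100000 these were 154700001 to 154800000, with 4.68% and 4.62% at day 0 against 4.18% and 3.90% at day 3, and 155100001 to 155200000, with 5.94% and 6.27% against 5.91% and 4.32%. The log2 differences of all 11, day 3 over day 0 by edgeR with TMM scaling, lay between -0.63 and -0.17, with SEs between 0.55 and 0.77, and each had an adjusted p of 0.999. As shares, the day 3 mean was lower in 9 of the 11. On the lower coordinate side lay 55.1% and 51.5% of the counts within 1 Mb at day 0 against 52.6% and 54.1% at day 3, a mean difference of 0.0568 percentage points (exact permutation p = 1).

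**Figure D4:**
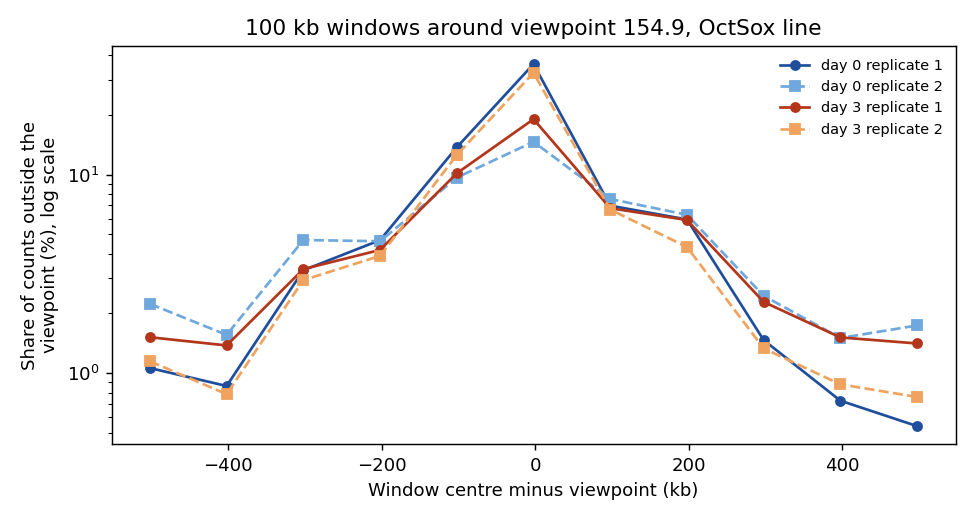
Share of counts outside the viewpoint (vertical axis, percent, log scale) in 11 windows of 100 kb, by the window centre's position relative to the viewpoint in kb (horizontal axis), 1 line for each OctSox library. Day 0 replicate 1 and day 3 replicate 2 are high in the central window (36.0% and 32.5%) and low at the edges, and the other libraries run flatter.

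The most contacted fragments lay within 76 kb of the viewpoint and were largely common to the libraries. The 8 with the highest mean share held 28.3% and 9.42% of the counts at day 0 against 13.6% and 25.5% at day 3. The leading one, 154914833 to 154926167, lay 25.7 kb away on the lower side. It held 6.37% and 1.16% at day 0 against 2.01% and 4.80% at day 3, with a fitted log2 fold change of -0.55 ± 1.11 (SE, edgeR adjusted p 1.0). It ranked first in the steep libraries, the third in day 0 replicate 2 and the fourth in day 3 replicate 1.

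The second, 154954693 to 154964047, lay 2.17 kb away on the higher side. It held 5.18% and 1.03% at day 0 against 2.01% and 4.45% at day 3. The next, 154901822 to 154906277 at 45.6 kb, held 3.82% and 1.76% at day 0 against 2.24% and 4.20% at day 3. Both were high in the same steep libraries, and the days overlapped. The fragment 154914326 to 154914826, 501 bp long and adjoining the leading one, held 4.05% and 1.12% at day 0 against 2.37% and 3.64% at day 3.

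The fragment 154966015 to 154967572, 13.5 kb away on the higher side, departed from this order. It held 1.79% and 1.73% at day 0 against 1.46% and 3.07% at day 3. Its day 0 libraries were level, and the day 3 libraries lay on either side of them. The log2 fold change was 0.22 ± 0.72 (SE, edgeR adjusted p 1.0). The other 3 leading fragments, 154967579 to 154971095, 154964054 to 154966008 and 154868427 to 154876379, had mean shares of 1.72%, 1.49% and 1.43%. For all 8 the log2 fold changes lay between -0.55 and 0.22, the 95% interval of each held 0, and each changed sign under at least 1 alternative.

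No fragment passed the day test. Of 4840 fragments tested, edgeR's quasi-likelihood test called 0 (0% called) at an adjusted p under 0.05, with 139 at an unadjusted p under 0.05, of which 71 were higher at day 3. The smallest adjusted p was 0.826. DESeq2, which left 2158 of the 4840 without an adjusted p, called 37 (0.764% called, of all 4840), 25 higher and 12 lower. Of these 0 lay within 1 Mb of the viewpoint and 29 beyond 20 Mb, 16 of the higher ones had 0 counts in both day 0 libraries and 11 of the lower ones 0 in both day 3 libraries. Without day 3 replicate 1, edgeR called 7, 5 higher and 2 lower. In such a fit 1 group is a single library, which is assumed to vary like the libraries of the other groups. The order of shares was also counted, without a test. Of the 6 arrangements of 2 libraries against 2, 1 puts both day 3 libraries above and 1 puts both below. Counted were the 4904 fragments with 10 or more counts in 2 or more libraries. Both day 3 shares lay above both day 0 shares at 632 (12.9%) and below at 771 (15.7%). At 0.1 to 1 Mb this split was uneven, with 12 above (4.72%) and 50 below (19.7%) among 254 fragments. These fragments share each library's total and distance decay, so they are not separate measurements. The summed shares of that band overlapped between the days.

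The precision of the test changed with distance. The median SE of a log2 fold change was 0.705 over the 298 fragments tested within 1 Mb, 3 of which had an unadjusted p under 0.05, and 3.1 over the 2476 beyond 20 Mb. In data simulated with the fitted dispersions, the test recovered 0% of 200 fragments changed 4-fold or 16-fold among 4840. For 100 kb windows it recovered 3.49% and 39.0% of 172 changed among 1377, and for 1 Mb windows 0% and 100% of 19 among 153. The changed fragments were drawn at random from all distances, so recovery within 1 Mb was not measured on its own. Absence of a call on single fragments sets no narrow bound on their change. By the SEs that bound is wider beyond 20 Mb than within 1 Mb.

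**Figure D5:**
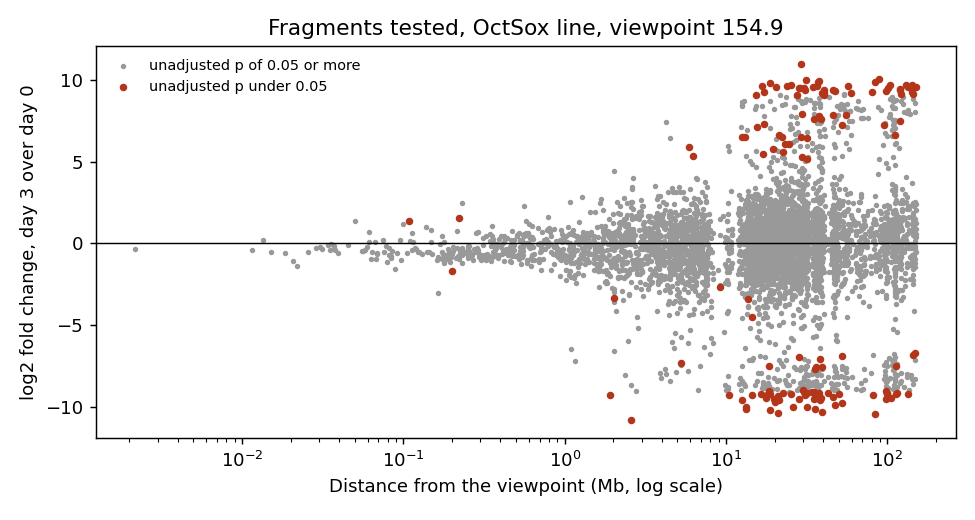
log2 fold change, day 3 over day 0 by edgeR (vertical axis), of each of 4840 tested fragments against distance from the viewpoint in Mb (horizontal axis, log scale), with the 139 fragments at an unadjusted p under 0.05 marked in red. The points spread widely with distance, and the marked ones far away lie mostly near the top and bottom, where one day has 0 or few counts.

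The 3 fragments with the smallest p-values in each direction lay between 2.59 and 88.8 Mb from the viewpoint and were at or near 0 in one day. Each had an edgeR adjusted p of 0.826. The fragment 125789650 to 125793524, 29.2 Mb away, had 0 and 0 counts at day 0 against 104 and 381 at day 3. By counting error at day 0 alone, taking 3 counts as the floor for a group at 0, the day 3 level was at least 163-fold higher. The fragment 66161972 to 66164042, 88.8 Mb away, had 0 and 0 counts against 111 and 156, at least 89.8-fold higher. These bounds take the observed level of the other day as exact and leave out the spread between replicates. They also treat reads as independent, though PCR can turn a ligation event into many reads. A fragment at 0 in one day passed the filter on low counts only through the other day. The fragment 102777992 to 102779750 at 52.2 Mb had 0 and 3 counts against 297 and 145, with a log2 fold change of 7.21 ± 1.92 (SE).

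On the other side, 152354795 to 152357989, 2.59 Mb from the viewpoint, had 151 and 282 counts at day 0 against 0 and 0 at day 3. That is at least 143-fold lower by counting error at day 3 alone, a bound with the same limits. The fragments 133833909 to 133846105 at 21.1 Mb, with 132 and 157 counts at day 0, and 71262939 to 71274022 at 83.7 Mb, with 175 and 92, also had 0 and 0 at day 3. In all 6 fragments the days did not overlap, but they were picked by their p in this comparison, so this is no separate evidence. DESeq2, run on the same libraries and so no separate evidence either, gave each of the 6 an adjusted p between 0.00164 and 0.0276.

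Summing counts over windows gave no call either. Of 1377 windows of 100 kb edgeR called 0 (0% called), with 14 at an unadjusted p under 0.05, and DESeq2 called 0. Of 153 windows of 1 Mb edgeR called 0 (0% called), with 1 at an unadjusted p under 0.05, and DESeq2 called 0. The 1 Mb window with the smallest p was 145000001 to 146000000, 8.95 Mb away, with 539 and 2677 counts at day 0 against 437 and 919 at day 3, with a fitted log2 fold change of -1.84 ± 0.81 (SE, edgeR adjusted p 0.999). Its low day 0 library, replicate 1, lay between the day 3 libraries. Its neighbour 146000001 to 147000000 had 648 and 2614 counts at day 0 against 864 and 681 at day 3, and again 1 day 0 library made the difference.

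Of the windows higher at day 3, 35000001 to 36000000 at 119 Mb had the smallest p, with 607 and 225 counts at day 0 against 841 and 1773 at day 3 and a log2 fold change of 1.18 ± 0.73 (SE, edgeR adjusted p 0.999). Without day 0 replicate 1 edgeR called 2 of the 1 Mb windows, both higher at day 3. Among 100 kb windows the smallest p belonged to 71200001 to 71300000, with 200 and 92 counts at day 0 against 1 and 1 at day 3 (edgeR adjusted p 0.999). Nearly all of its counts came from the single fragment from 71262939.

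As shares, far 1 Mb windows leaned one way. Both day 3 shares lay above both day 0 shares in 34 of 154 windows (22.1%) and below in 0 (0%), an order without a test. All 34 lay beyond 20 Mb. Of the 132 windows there, 119 had the higher mean at day 3. These windows share the total, so they follow the larger far share and are not separate measurements of it. The direction also depended on scaling: edgeR gave a positive log2 fold change to 50.4% of 131 far windows with TMM scaling and to 90.8% when scaled by total count, which moved the median of all 1 Mb windows from -0.12 to 0.35. For 100 kb windows the median moved from -0.0036 to 0.295.

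The 5 far windows with the highest mean shares each ranked among the first 10 of the far windows in all 4 libraries. The window 129000001 to 130000000, 25.0 Mb away, held 0.337% and 0.819% of counts at day 0 against 0.866% and 0.468% at day 3. It and its peers 132000001 to 133000000, 131000001 to 132000000, 133000001 to 134000000 and 126000001 to 127000000, chosen after their values were seen, had mean shares between 0.506% and 0.623%, against a median of 0.0727% over the 132 windows. In each of the 5 the broad libraries, day 0 replicate 2 and day 3 replicate 1, were higher than the steep ones, and the days overlapped.

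The authors' deposited table of the same comparison listed 1690 entries, 254 of them with an adjusted p and 0 of those under 0.05 (0% called), with 41 entries at an unadjusted p under 0.05. Its smallest adjusted p was 0.0996, at 154726404 to 154731381, 220 kb from the viewpoint. That fragment had 443 and 1196 counts at day 0 against 3171 and 1752 at day 3, so the days did not overlap. The authors' deposited table gave a log2 fold change of 1.62 with an SE of 0.458, and edgeR gave 1.55 ± 0.56 (SE) with an adjusted p of 0.826. The adjusted values are not alike: the authors' covers 254 entries, 219 of them within 1 Mb, and edgeR's covers 4840 fragments. Before adjustment the p was 0.000392 in the authors' deposited table and 0.0285 by edgeR's quasi-likelihood test. In the 100 kb window that holds this fragment, 154700001 to 154800000, both day 3 shares lay below both day 0 shares.

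The authors' deposited table placed 155060405 to 155060990 and 154895461 to 154901815 next, each with an adjusted p of 0.296. The first, 108 kb away, had 367 and 847 counts at day 0 against 1807 and 1463 at day 3. The second, 50.0 kb away, had 4637 and 9127 counts at day 0 against 13256 and 22932 at day 3. At both, each day 3 library exceeded both day 0 libraries, in the steep and the broad library alike. The edgeR log2 fold changes were 1.39 ± 0.55 and 1.37 ± 0.58 (SE), with adjusted p-values of 0.826.

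Among entries lower at day 3 in the authors' deposited table, 155153907 to 155155117 had the smallest adjusted p, 0.606. It lay 201 kb from the viewpoint and had 1348 and 2402 counts at day 0 against 448 and 753 at day 3. Its edgeR log2 fold change was -1.70 ± 0.61 (SE, adjusted p 0.826), and the days did not overlap. The next in that table, 151346520 to 151366884 and 155487446 to 155492462, had adjusted p-values of 0.995.

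Whether the day difference depended on the line was tested by the interaction of day and line over the 8 libraries of the viewpoint. Beyond 20 Mb the share was 17.1 percentage points higher at day 3 in the YY1 line, 12.5 points more than in the OctSox line. The two-sided exact permutation p was 0.0556, which no arrangement can go below (0.278 adjusted over the bands). Line labels were permuted within each day (36 arrangements), which takes the lines to be alike within a day. At day 0 the share was 13.1% and 15.2% in the OctSox line against 10.8% and 10.7% in the YY1 line. In the YY1 line 76.0% and 85.9% of all counts lay outside the excluded fragments at day 0, against 35.3% and 62.3% at day 3. That line's mean raw counts per far fragment were 4.28 and 4.73 at day 0 against 4.59 and 11.2 at day 3. The interaction in shares of all counts was not tested. Of 9241 fragments edgeR called 3 (0.0325% called), with 838 at an unadjusted p under 0.05. DESeq2 called 108 and left 3404 without an adjusted p. All 3 edgeR calls were higher at day 3 in the YY1 line relative to the OctSox line, at 99583914 to 99584493, 108801371 to 108804856 and 48262985 to 48265819. Each was carried by 1 library, YY1 day 3 replicate 2, with 1917, 1883 and 4141 counts, against 0, 37 and 0 in YY1 day 3 replicate 1. In the OctSox line the fragment from 99583914 had 34 and 7 counts at day 0 against 0 and 4 at day 3.

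Without that library edgeR called 2 fragments, both in the opposite direction, and with the replicate number as a block it called 0. Other single libraries mattered as well. There were 0 calls when OctSox day 3 replicate 1 or YY1 day 0 replicate 1 was left out, and 1 call when it was YY1 day 0 replicate 2. Omitting OctSox day 0 replicate 1 gave 6 calls, and omitting YY1 day 3 replicate 1 gave 10. Near the viewpoint the smallest interaction p belonged to the leading fragment 154966015 to 154967572. In the YY1 line it held 2.98% and 4.65% at day 0 against 1.37% and 1.16% at day 3, lower in both libraries, whereas the OctSox days overlapped. The interaction was -2.09 ± 0.51 (SE, YY1 minus OctSox, log2) with an edgeR adjusted p of 0.0893. By edgeR it passed when scaled by total count (adjusted p 0.00299) and with no filter on low counts (0.032). It also passed without OctSox day 0 replicate 1 (0.000719) and without YY1 day 3 replicate 2 (0.000455), fits in which 1 of the 4 groups is a single library and the other 3 supply the spread. It passed in no other alternative run. The interaction called 0 of 1468 windows of 100 kb (0% called, 41 at an unadjusted p under 0.05, 0 by DESeq2) and 0 of 153 windows of 1 Mb (0% called, 2 at an unadjusted p under 0.05, 0 by DESeq2), all by edgeR.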

How the data were processed

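The 4C libraries were sequenced on a MiSeq, per the labels, and aligned with Bowtie to mm9, per the submitters' processing notes. How reads were counted is not given in the sources used here. In chromosome 4's matrix, as deposited, each HindIII fragment has a raw count, placed by its order in the deposited fragment list. Per the file headers, the authors' own table holds for each entry a log2 fold change, its test score, p-values before and after adjustment and a normalised mean signal. Its unnamed entries were placed by matching them to the 1691 fragments whose median count reached 40, less 1 beside the viewpoint (correlation 0.9993, and 0.9992 for the next best choice). Its fold change is day 0 over day 3 and was turned.

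The viewpoint fragment was left out with its neighbour on each side. Counts per fragment, 100 kb window and 1 Mb window were filtered with filterByExpr (minimum count 10) and compared by the quasi-likelihood test of edgeR 4.0.16 under R 4.3.3 (TMM scaling, Benjamini-Hochberg adjustment, threshold 0.05); the SE is the log2 fold change over the square root of F. DESeq2 1.42.0, other scalings, filters, exclusions and single left-out libraries were alternatives. Shares were compared by two-sided exact permutation. The edgeR script was tested on simulated data. Python 3.11.15, pandas 2.3.3 and scipy 1.17.1 were used.

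Named were the 8 fragments with the highest mean share; up to 5 called, non-overlapping items in each direction or else the 3 with the smallest p (fragments within 20 kb of a named one passed over); 3 in each direction from the authors' table; and the windows within 0.5 Mb. Members and lists were chosen with earlier results of these data known. No genome of the files' build was used, so no gene or sequence is given.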

Additional observations from a re-analysis of the deposited data

Results flagged for a closer look

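At 3 fragments the day effect differed between the lines by the edgeR interaction test. The log2 difference of the day effects, YY1 minus OctSox, was 13.16 at 99583914 to 99584493 (adjusted p 0.000502), 12.10 at 108801371 to 108804856 (adjusted p 0.00578) and 10.88 at 48262985 to 48265819 (adjusted p 5.2e-05). All 3 rest on YY1 day 3 replicate 2. Without it, an alternative chosen after seeing the data, the values were 0.33, 7.74 and -3.32, and edgeR gave each an adjusted p of 1.0. In that fit the YY1 day 3 group is a single library and the other groups supply the spread. Groups of 2 libraries are too small for a test of outlying libraries, and none was run.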

How the results depend on the processing

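Fragment calls for the day went from 0 to 37 with DESeq2 and ranged from 0 to 7 with 1 library left out, and 1 Mb windows from 0 to 2; other settings gave 0. Interaction calls on fragments went from 3 to 108 with DESeq2 and 0 with the replicate block, and ranged from 0 to 10 with 1 library left out; 100 kb windows ranged from 0 to 1 and 1 Mb windows from 0 to 2. Leaving out YY1 libraries, and fitting only fragments within 1 Mb or windows within 5 Mb (0 calls each), were chosen after seeing the data.

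The share difference beyond 20 Mb kept its sign, from 0.418 with nothing left out at the viewpoint to 6.72 percentage points with 10 fragments on either side left out. Up to 0.1 Mb it turned to 10.04 with nothing left out, 0.0726 with fragments counted in place of counts and 0.879 with counts capped at the 99th percentile. At 0.1 to 1 Mb it turned to 0.43 with fragments counted. The lower-side share turned to -1.75 with 10 fragments left out, -0.0271 with fragments counted and -1.66 with counts capped. With 1 library left out the ranges were -12.6 to 11.99 (up to 0.1 Mb), -7.97 to 1.49 (0.1 to 1 Mb), -3.55 to 2.46 (1 to 5 Mb), -4.0 to 2.96 (5 to 20 Mb) and -1.77 to 1.89 (lower coordinate side) percentage points.

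The log2 fold changes of the leading fragments changed sign. With the replicate block they were 0.0201 at 154914833, 0.20 at 154954693, 0.073 at 154901822, 0.29 at 154914326 and 0.0074 at 154964054. Scaled by total count they were 0.057 at 154954693, 0.21 at 154901822 and 0.22 at 154914326. With the distance trend removed they were 0.099 at 154954693, 0.15 at 154901822, 0.21 at 154914326 and -0.015 at 154966015. Fitted within 1 Mb alone they were 0.16 at 154954693, 0.37 at 154901822, 0.31 at 154914326 and 0.10 at 154964054. DESeq2 gave 0.065 at 154901822. With 1 library left out they ranged from -1.64 to 2.03 at 154914833, -1.35 to 2.12 at 154954693, -0.92 to 1.33 at 154901822, -1.08 to 1.85 at 154914326, -0.72 to 0.86 at 154966015, -1.37 to 1.15 at 154967579, -1.27 to 1.56 at 154964054 and -1.30 to 0.90 at 154868427. The interaction ranged from -3.32 to 16.43 at fragment 48262985, -1.99 to 3.80 at the 100 kb window 86500001 and -1.12 to 4.51 at 48200001, and was 0.029 at the 1 Mb window 101000001 when scaled by total count.

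Replicate numbers were shared by the days, and no label says that they pair the libraries. The deviations of replicate 1 from its day mean correlated between the days at -0.0566 over 4904 fragments and at -0.29 over the 300 within 1 Mb. With the replicate block edgeR made 0 calls for the day. The cause of these differences was not tested. Precision was lowest for fragments beyond 20 Mb, with a median SE of 3.1 on the log2 scale; depth was not varied.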
